A study of Mus musculus with 18 samples.

Results

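The 39 Hox genes of the mouse, all whose symbol is Hoxa, Hoxb, Hoxc or Hoxd followed by a number, were described among the 55471 genes listed for 18 RNA-Seq libraries. Of these genes, 11 lie in the HoxA cluster (chr6, with Hoxa2 to Hoxa13 at chr6:52162417-52260880), 10 in HoxB (chr11:96194316-96368256), 9 in HoxC (chr15:102921103-103036852) and 9 in HoxD (chr2:74668310-74765142), in GRCm38 coordinates. Hox genes encode homeodomain transcription factors that give cells along the head-to-tail axis their positional identity. They are numbered by paralog group in the order in which they lie along each cluster, so that low numbers are switched on earlier and farther forward in the embryo and high numbers later and farther back. In naive pluripotent cells the clusters are held silent under Polycomb marks, and in fibroblasts grown from an embryo they keep a code of the body level from which the cells came.

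The ESCs were a single Tet-On-OSKM/Oct4-GFP line from (C57BL/6 x 129S4/SvJae)F1 mice crossed with (CBA/CaJ X C57BL/6J)F2 mice, in which doxycycline (DOX) switches on a polycistronic cassette that encodes Klf4, c-Myc, Oct4 and Sox2 (OSKM) in the Col1a1 locus through an M2rtTA in Rosa26. OSKM-ESCs had been moved from 2iL (2 kinase inhibitors with LIF) to N2B27 with DOX, and 2iL-ESCs had stayed in 2iL, with 2 libraries of each medium at days 18, 25 and 38. The iPSCs and the mouse embryonic fibroblasts (MEF cells) were of strain (C57BL/6 x 129S4/SvJae)F1: OSKM-iPSC clones 1 (passage 7) and 3 (passage 6), 2iL-iPSC clones 3 (passage 2) and 6 (passage 3), and 2 libraries of MEF cells at passage 4 in DMEM with serum. The labels of the 2iL-iPSCs name N2B27 with DOX as the daily medium, whereas the methods name 2iL with DOX withdrawn, and the clones were grouped by their titles. Both ESCs and the starting iPSC colonies had been grown on MEF feeder cells treated with mitomycin-c, so fibroblast RNA can reach a pluripotent library. The FPKM in MEF cells is printed for some of the Hox genes only. The heat map of the Hox genes shows the MEF libraries beside the others for every gene drawn. Levels as a share of the MEF level are compared with those of fibroblast markers further below. Nothing in the labels says that the 2 libraries of a group came from separate cultures, so p-values measure the spread between these libraries, which may be technical. Values are FPKM (fragments per kilobase of transcript, scaled to the mapped fragments of the library), which allow genes of different length to be compared, and the depth in reads is unknown.

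Promoters were available from RefSeq (GRCm38.p6) for 22 of the 39 genes. The 250 bases before the transcription start are shown for 4 of them that differ in their level: Hoxb1 and Hoxd1, which were expressed in OSKM-ESCs at day 38 and listed at 0 in both MEF libraries, Hoxb8, which was expressed in both, and Hoxd13, which lies at the posterior end of its cluster and stayed below 1 FPKM in every library. Capitals mark every match on either strand to 4 motifs, TTTATG and TTTATA (letters read by CDX factors), TGATNNAT (PBX with HOX) and AGGTGTGA (T).
Hoxb1, chr11:96365508-96365757, plus strand: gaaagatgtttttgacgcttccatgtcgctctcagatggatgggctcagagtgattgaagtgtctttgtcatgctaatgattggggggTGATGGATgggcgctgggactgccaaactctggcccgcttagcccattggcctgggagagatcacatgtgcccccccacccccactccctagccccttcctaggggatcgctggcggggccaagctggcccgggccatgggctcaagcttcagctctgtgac
Hoxb8, chr11:96281655-96281904, plus strand: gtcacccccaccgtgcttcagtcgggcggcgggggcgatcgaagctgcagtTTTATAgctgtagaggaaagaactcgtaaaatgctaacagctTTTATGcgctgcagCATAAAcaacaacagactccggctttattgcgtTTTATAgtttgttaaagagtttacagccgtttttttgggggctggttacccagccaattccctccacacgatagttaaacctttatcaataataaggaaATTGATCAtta
Hoxd1, chr2:74762730-74762979, plus strand: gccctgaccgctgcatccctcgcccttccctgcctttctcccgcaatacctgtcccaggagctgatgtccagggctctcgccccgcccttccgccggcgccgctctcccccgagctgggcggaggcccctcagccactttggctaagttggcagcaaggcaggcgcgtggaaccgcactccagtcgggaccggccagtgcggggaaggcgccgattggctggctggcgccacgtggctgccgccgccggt
Hoxd13, chr2:74667975-74668224, plus strand: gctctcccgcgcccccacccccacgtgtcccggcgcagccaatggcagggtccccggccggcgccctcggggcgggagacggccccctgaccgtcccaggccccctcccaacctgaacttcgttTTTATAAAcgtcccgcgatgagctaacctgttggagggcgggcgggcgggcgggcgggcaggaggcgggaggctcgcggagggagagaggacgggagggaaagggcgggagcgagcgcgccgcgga
The Hoxb8 stretch held 2 matches to TTTATG, 2 to TTTATA and 1 to TGATNNAT. The Hoxb1 stretch held 1 match to TGATNNAT. The run of 8 capitals in Hoxd13 is TTTATA read on both strands. Over the 24 promoters of the 22 genes, TTTATG occurred in 5, TTTATA in 4, TGATNNAT in 4 and AGGTGTGA in 1, against 10.8%, 12.4%, 7.68% and 1.12% of the 32851 mouse promoters of this length, and the retinoic acid receptor element, a direct repeat of AGGTCA with 5 bases between, occurred in 0 of the 24 and in 3 of all. The 24 promoters held 2 to 35 CG dinucleotides with a median of 12.5, and all promoters had a median of 6. A match is a run of letters and not a binding site.

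In OSKM-ESCs at day 38 a large stretch of all 4 clusters was expressed. Of the 39 genes, 22 and 21 had an FPKM over 1 in the 2 libraries, all of them in paralog groups 1 to 9, and 0 of the 12 genes of groups 10 to 13. In OSKM-ESCs of days 18 and 25 between 1 and 5 genes passed that level, in 2iL-ESCs between 1 and 3, and in MEF cells 29 and 28. The summed FPKM of the 39 genes was 124 in each day 38 OSKM-ESC library, 8.71 and 14.1 at day 18, 14.8 and 14.2 at day 25, and 4.42 to 9.51 in the 2iL-ESCs. The 2 day 38 libraries thus lay far above every other pluripotent library and below the MEF cells, whose sums were 241 and 234. In bulk RNA, a few cells with high levels and many cells with low levels cannot be told apart.

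**Figure D1:**
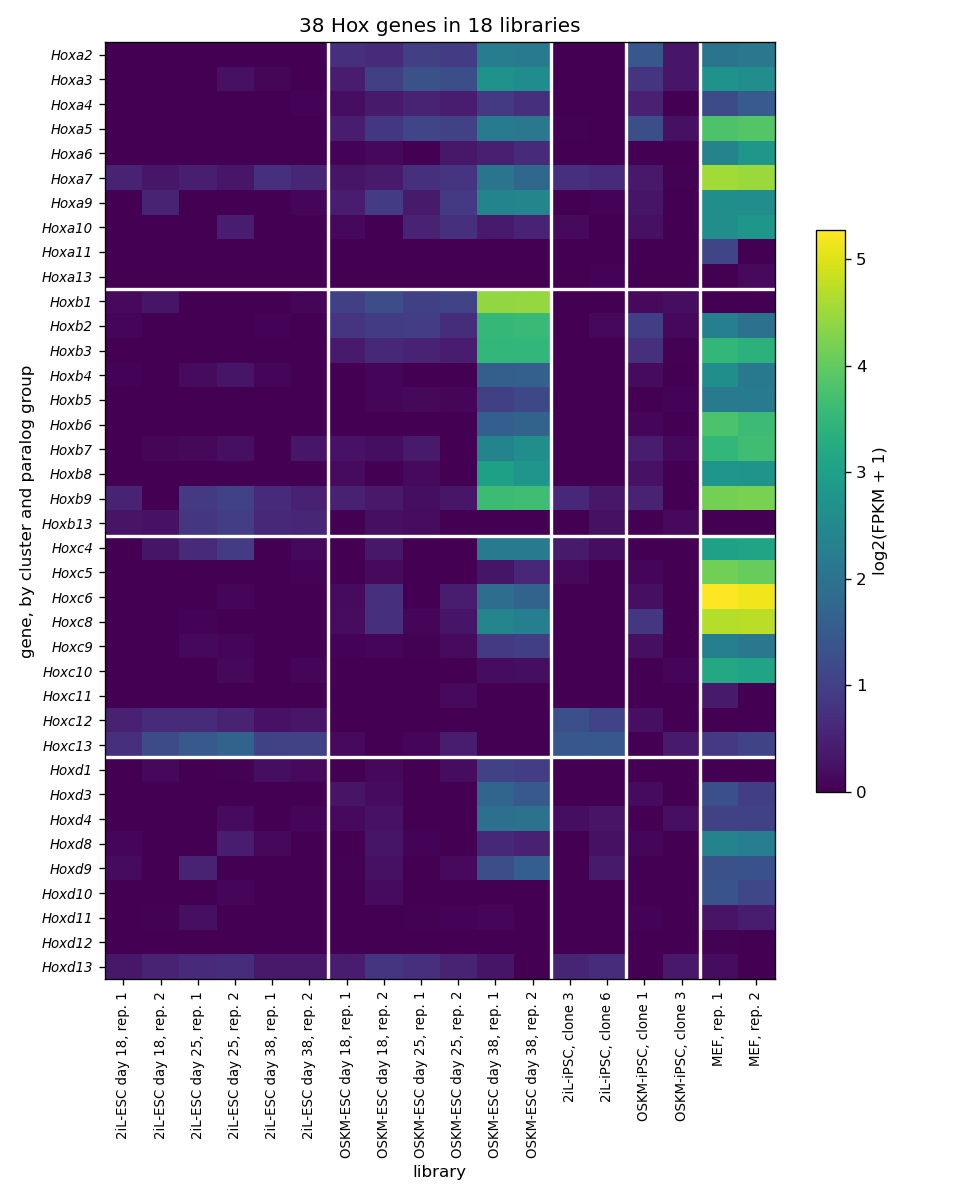
log2(FPKM + 1) of 38 of the Hox genes (rows, by cluster and paralog group) in the 18 libraries (columns), with white lines between clusters and between cell groups. The day 38 OSKM-ESC libraries and the MEF libraries show the broad blocks of expression, and Hoxc13 stands out in the 2iL columns.

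Hoxb1 had the highest Hox level of day 38. This gene, which specifies the fourth segment of the hindbrain, was at 0.988 and 1.38 FPKM at day 18, 1.01 and 1.10 at day 25, and 20.4 and 20.8 at day 38 in OSKM-ESCs. It was at 0 to 0.235 FPKM (median 0.0220) in the 6 libraries of 2iL-ESCs and was listed at 0 in both MEF libraries. All OSKM-ESC libraries lay above all 2iL-ESC libraries, and the difference on the log2(FPKM + 1) scale was 0.90 ± 0.12 (SE) at day 18, 1.04 ± 0.12 at day 25 and 4.40 ± 0.12 at day 38 (limma, adjusted p = 0.00015, 6e-05 and 8.2e-09). Hoxd1, the paralog in HoxD, was listed at 0 in both MEF libraries like Hoxb1, and was at 1.03 and 0.954 FPKM at day 38 against at most 0.142 FPKM in 2iL-ESCs and at most 0.121 FPKM in the earlier OSKM-ESCs.

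Paralog groups 2 and 3, which pattern the hindbrain and the neck, followed in HoxA and HoxB. Hoxa2 was at 0.647 and 0.578 FPKM at day 18, 1.01 and 0.910 at day 25 and 3.72 and 3.53 at day 38, and was listed at 0 in all 6 libraries of 2iL-ESCs. Hoxa3 was at 0.344 and 1.01 FPKM, then 1.49 and 1.41, then 5.52 and 4.96, against 0 to 0.177 in 2iL-ESCs. For both genes every OSKM-ESC library was higher than every 2iL-ESC library, and all 3 days passed the test. Hoxb2 was at 0.624 to 0.943 FPKM in the 4 libraries of days 18 and 25 and at 10.5 and 11 at day 38, with at most 0.0559 in 2iL-ESCs. Hoxb3 was at 0.309 to 0.520 FPKM at the earlier days and at 10.3 and 10.2 at day 38, and was listed at 0 in all 2iL-ESC libraries. The mean levels of Hoxb2 and Hoxb3 were thus no higher at day 25 than at day 18, while those of Hoxa2 and Hoxa3 were. The difference between these courses was not tested. Hoxd3 was at 0.214 and 0.107 FPKM at day 18, listed at 0 in both libraries of day 25, and at 2.28 and 1.79 at day 38.

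Genes of groups 4 to 8, which mark the neck and trunk, were expressed at day 38 with large differences among them. In HoxA, Hoxa5 was already at 0.323 and 0.821 FPKM at day 18 and at 1.14 and 1.06 at day 25, and reached 3.46 and 3.24 at day 38, with 0 in all 6 libraries of 2iL-ESCs. Hoxa7 was at 0.232 and 0.307, 0.657 and 0.733, and 3.08 and 2.39 FPKM at the 3 days, against 0.245 to 0.664 (median 0.390) in 2iL-ESCs, so that the earlier OSKM-ESC libraries lay within or just beyond the 2iL-ESC range. Its difference on the log2(FPKM + 1) scale was -0.07 ± 0.13 at day 18, 0.38 ± 0.13 at day 25 and 1.25 ± 0.13 at day 38 (limma, adjusted p = 0.68, 0.033 and 3.3e-05). In HoxB, Hoxb8 was at 0 to 0.112 FPKM at days 18 and 25 and at 6.96 and 5.68 at day 38, listed at 0 in every 2iL-ESC library, with a day 38 difference of 2.87 ± 0.12 (limma, adjusted p = 8.5e-08). Hoxb7 was at 0 to 0.305 FPKM before and at 4.17 and 5.08 at day 38. Hoxb4, Hoxb5 and Hoxb6 were at 2.01 and 2.06, 1.01 and 1.22, and 1.97 and 2.22 FPKM at day 38, and at no more than 0.0809 FPKM in the earlier OSKM-ESCs. Within HoxB the mean levels were lower with each step from group 1 to group 5 and higher with each step from there to group 9. Hoxa4 and Hoxa6 stayed below 1 FPKM, at 0.849 and 0.658 and at 0.384 and 0.549 at day 38, and Hoxa4 was above 0 in every OSKM-ESC library and in 1 of the 6 libraries of 2iL-ESCs.

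In HoxC and HoxD, genes of groups 4 to 8 were also expressed at day 38, except for Hoxc5 and Hoxd8, which stayed below 1 FPKM. Hoxc4 was at 3.58 and 3.47 FPKM at day 38, Hoxc6 at 2.7 and 2.21 and Hoxc8 at 4.26 and 3.88, whereas Hoxc5 was at 0.224 and 0.529. The annotated span of Hoxc5 holds Hoxc6 and Hoxc8 on the same strand, and how shared reads were split among them is unknown. Hoxc6 and Hoxc8 had been detected at 0 to 0.636 and 0.0452 to 0.647 FPKM at the earlier days, with at most 0.0527 and 0.0428 in 2iL-ESCs. Hoxc4 was higher in 2iL-ESCs than in OSKM-ESCs at day 25, at 0.569 and 0.920 FPKM against 0 in both, and the day 25 difference of -0.80 ± 0.16 (limma, adjusted p = 0.0021) turned to 2.12 ± 0.16 at day 38 (adjusted p = 3.3e-06). Hoxd4 was listed at 0 in both day 25 OSKM-ESC libraries and was at 2.81 and 2.93 FPKM at day 38. Hoxd8 remained low there, at 0.511 and 0.4 FPKM.

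Group 9 was the posterior limit of the clear expression. Hoxb9, which acts in the thoracic and limb-level trunk, was at 0.142 to 0.405 FPKM at days 18 and 25 and at 11.3 and 11.6 at day 38, below the 17.0 and 17.4 of MEF cells. In 2iL-ESCs it was at 0 to 1.03 FPKM (median 0.489), and at day 25 it was higher there than in OSKM-ESCs, by -0.71 ± 0.16 on the log2(FPKM + 1) scale, before a difference of 3.07 ± 0.16 at day 38 (limma, adjusted p = 0.0043 and 3.1e-07). Hoxa9 was at 0.311 to 0.909 FPKM before and at 4.19 and 4.38 at day 38, Hoxd9 at 0 to 0.176 and then 1.41 and 2.00, and Hoxc9 at 0.0169 to 0.112 and then 0.872 and 0.963. Beyond group 9, Hoxa10 was at 0.297 and 0.441 FPKM at day 38, against 0.429 and 0.646 at day 25, and Hoxc10 at 0.133 and 0.148. The other 10 genes of groups 10 to 13 were listed at 0 in both day 38 libraries, except Hoxd11 and Hoxd13, which were above 0 in a single library.

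**Figure D2:**
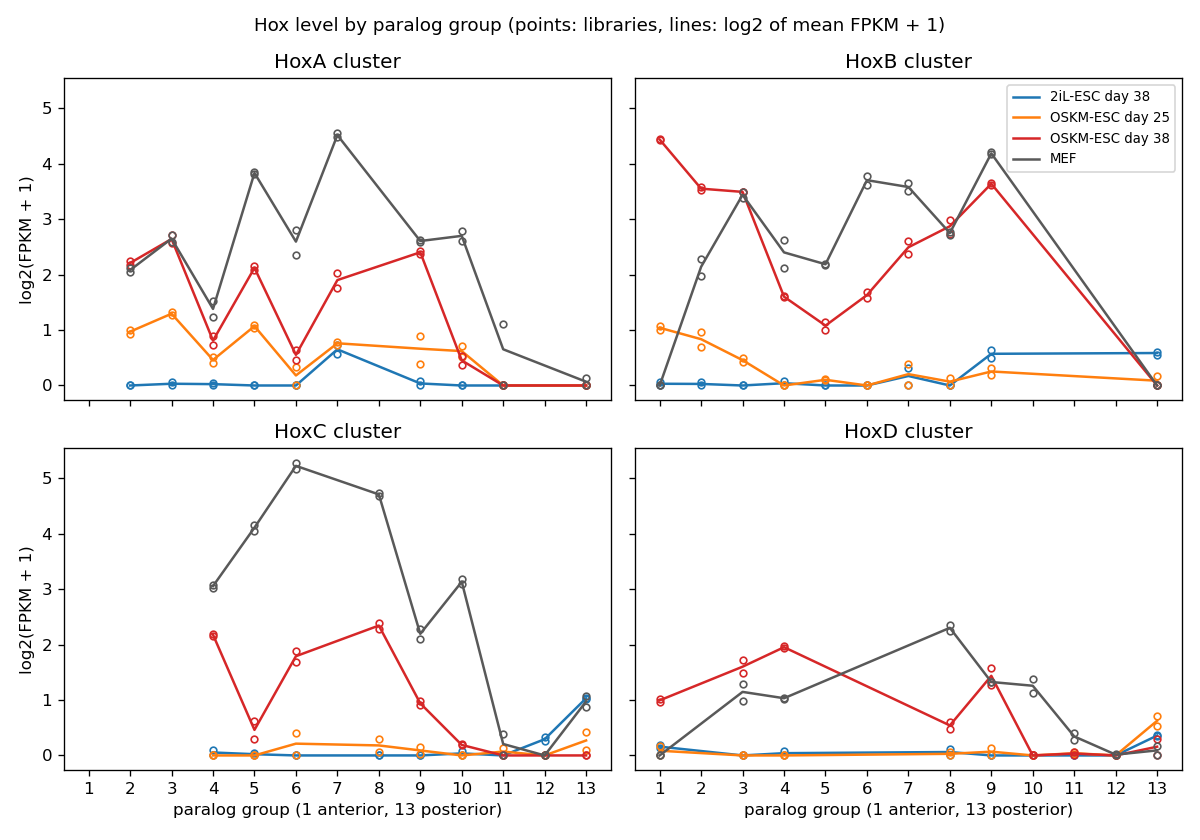
log2(FPKM + 1) against paralog group in each of the 4 clusters, for 2iL-ESCs of day 38, OSKM-ESCs of days 25 and 38 and MEF cells, with open points for libraries, lines through the log2 of the group mean + 1, and 38 of the genes drawn. The day 38 OSKM-ESCs lie near or above the MEF level in groups 1 to 3, and farthest below it in groups 5 and 6 of HoxC.

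In the fit over all days, which tested 14016 genes, 15 of the 23 Hox genes that passed the filter (FPKM over 1 in at least 1 library) were higher in OSKM-ESCs and 1, Hoxc13, was lower, where 29.5% of all genes tested were higher and 24.4% lower. With no filter 7 of 39 were higher, and in a single fit of all 9 groups 27 of 33. Of these 23 genes, 20 passed through OSKM-ESC libraries alone, 16 of them through day 38 alone, so the counts had to lean towards higher and are given as a description. Differences are on the log2(FPKM + 1) scale, which understates the change of low genes. By day, 8 genes were higher and 1 lower at day 18 (29.7% and 20.5% of all genes), 9 higher and 3 lower at day 25 (23.3% and 28.3%), and 22 higher and 1 lower at day 38 (29.2% and 21.1%). The effect of the medium differed between days in 22 of the 23 genes (interaction F test, 37.9% of all genes), and Hoxc13 was the exception. Across days, 22 of the 23 changed in OSKM-ESCs (51.4% of all genes) and 3 in 2iL-ESCs (42.4%), namely Hoxb9, Hoxc4 and Hoxc13. Without the second day 25 library of 2iL-ESCs these 3 were not called by limma, with 3 at an unadjusted p under 0.05. Without day 38, 7 Hox genes passed the filter, of which 5, among them Hoxa2, Hoxa3, Hoxa5 and Hoxb1, were higher, Hoxc13 lower, and Hoxb9 turned to a difference of -0.26 (limma, adjusted p = 0.339). Hoxa2, Hoxa3, Hoxa5, Hoxb1, Hoxb2 and Hoxb3 passed the test for higher at each of the 3 days. Of all 39 genes without a filter, 9 had every OSKM-ESC library above every 2iL-ESC library (among them Hoxa2 to Hoxa5, Hoxb1 to Hoxb3 and Hoxc8, the last by 0.0452 against 0.0428 FPKM) and 3 had every library below. Among the 23 that passed the filter, 8 lay above and 1 below, against 14.6% and 12% of all genes tested. For each of the 12 genes that did not overlap, the exact 2-sided permutation p was 0.00216, the smallest that 6 against 6 libraries can give. Genes chosen for not overlapping must give this value, so it adds nothing to that choice. The permutation also ignores the day and treats the 6 libraries of a medium, from 1 ESC line, as separate units.

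**Figure D3:**
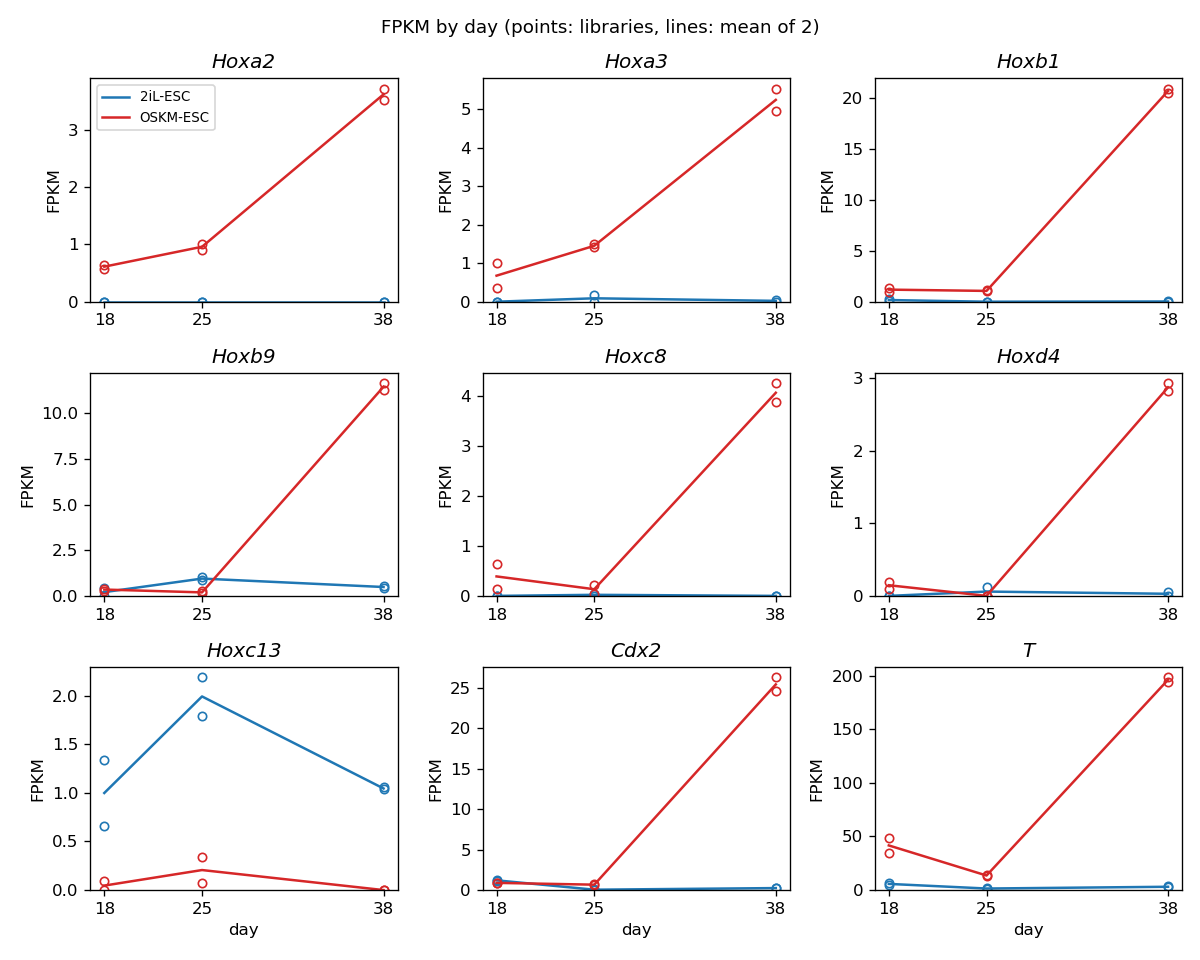
FPKM against day for 7 Hox genes and for Cdx2 and T, with red for OSKM-ESCs, blue for 2iL-ESCs, points for libraries and lines through the means of 2. Hoxa2 and Hoxa3 have higher means at day 25 than at day 18, Hoxb1, Hoxb9, Hoxc8 and Hoxd4 reach their highest red points at day 38 together with Cdx2 and T, and Hoxc13 is higher in blue at each day.

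Some genes at the posterior ends of HoxB and HoxC were higher in 2iL-ESCs than in OSKM-ESCs. Other Hox genes were also detected in 2iL-ESCs, among them Hoxa7 at 0.245 to 0.664 FPKM and Hoxb9 at 0 to 1.03. Hoxc13, the posterior end of HoxC and known for its part in hair, was at 0.660 to 2.19 FPKM (median 1.20) in 2iL-ESCs and at 0 to 0.342 in the 6 libraries of OSKM-ESCs, with both day 38 libraries listed at 0. Its difference was -0.91 ± 0.17 at day 18, -1.32 ± 0.17 at day 25 and -1.03 ± 0.17 at day 38 on the log2(FPKM + 1) scale (limma, adjusted p = 0.0017, 0.00017 and 0.00077). The neighbouring Hoxc12 was at 0.196 to 0.550 FPKM (median 0.419) in 2iL-ESCs and listed at 0 in all 6 OSKM-ESC libraries. Hoxb13, the posterior end of HoxB, was at 0.201 to 0.939 FPKM (median 0.501) against 0 to 0.157. For these 3 genes the media did not overlap, whereas Hoxd13 was at 0.260 to 0.587 FPKM in 2iL-ESCs and 0 to 0.722 in OSKM-ESCs, with full overlap. Of the 23 Hox genes tested, 1, Hoxc13, had every OSKM-ESC library below every 2iL-ESC library, against 12% of all genes tested. In 2iL-iPSC clones Hoxc13 was at 1.70 and 1.73 FPKM and Hoxc12 at 1.46 and 1.07, against 0 and 0.302 and 0.169 and 0 in OSKM-iPSCs, differences that did not pass the test (limma, adjusted p = 0.064 and 0.092). Hoxb13 was at 0 and 0.183 FPKM in 2iL-iPSCs and 0 and 0.0928 in OSKM-iPSCs, with overlap. MEF cells had 0.823 and 1.11 FPKM of Hoxc13 and were listed at 0 for Hoxc12 and Hoxb13, so the latter 2 genes were detected in 2iL-ESCs and not in fibroblasts. All of these levels are low, near or below 1 FPKM in most libraries, and the reads behind them cannot be counted.

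**Figure D4:**
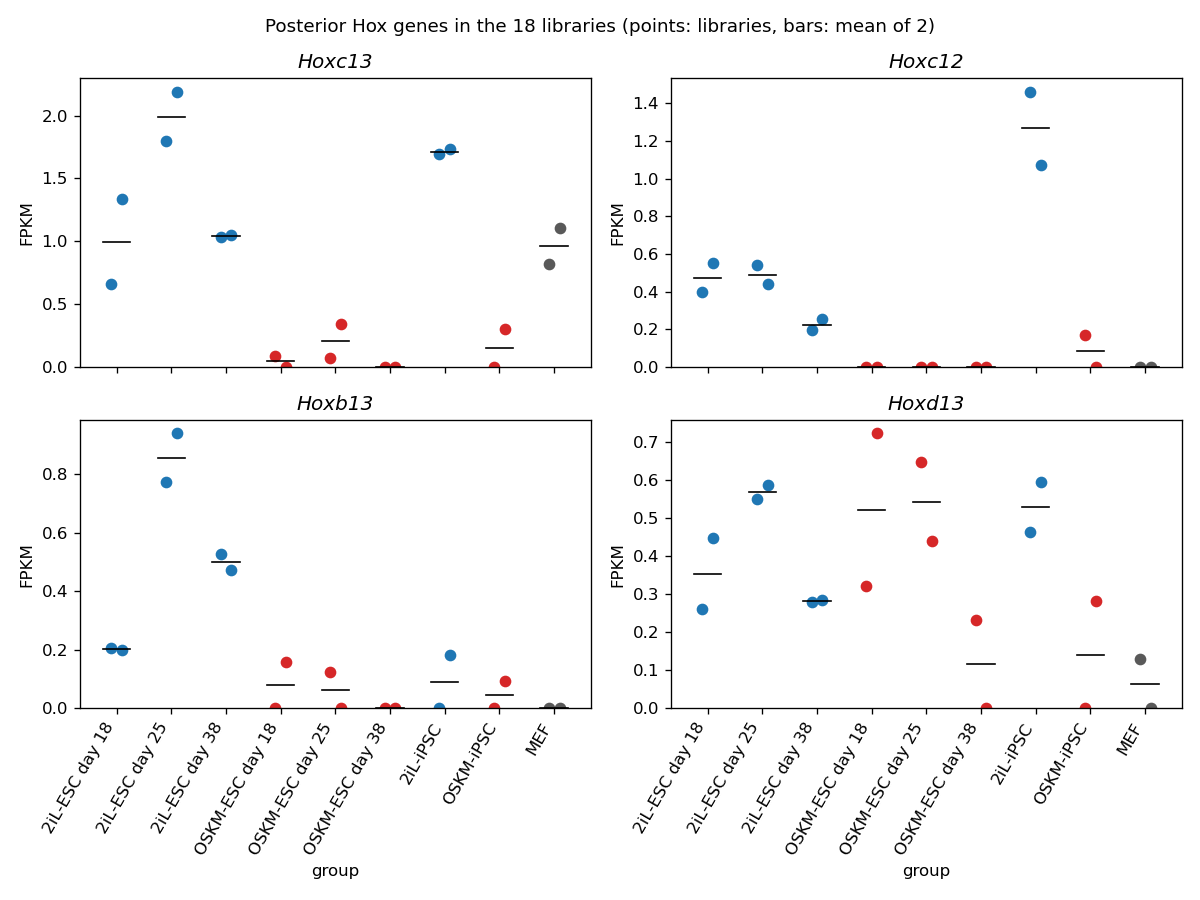
FPKM of Hoxc13, Hoxc12, Hoxb13 and Hoxd13 in the 9 groups, with blue points for 2iL cells, red for OSKM cells and grey for MEF cells, and bars at the mean of 2. Every blue point of Hoxc13 and Hoxc12 lies above the red points of the same cell type, those of Hoxb13 do so in ESCs and not in iPSCs, and Hoxd13 overlaps in ESCs.

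Between OSKM-iPSCs and 2iL-iPSCs 5 Hox genes passed the filter, 2 of them through OSKM-iPSC libraries alone, and 0 were called by limma in either direction, where 5% of all 13653 genes tested were higher and 2.96% lower. At an unadjusted p under 0.05, 0 were higher and 2, Hoxc12 and Hoxc13, were lower, by -1.06 ± 0.31 and -1.25 ± 0.30 (limma, adjusted p = 0.092 and 0.064). The OSKM-iPSC clones differed from each other. Clone 1 had a summed Hox level of 11.6 FPKM, with Hoxa2 at 1.71, Hoxa5 at 1.41, Hoxb2 at 0.973, Hoxc8 at 0.791, Hoxa3 at 0.751 and Hoxb3 at 0.640, and clone 3 had 3.19 FPKM in all, with Hoxa3 at 0.256 and Hoxa2 at 0.250. The 2iL-iPSC clones had sums of 6.93 and 5.91 FPKM, so both lay between the 2 OSKM-iPSC clones. Clone 1 was also the pluripotent library with the highest fibroblast signal, with a summed level of the 15 fibroblast markers of 149 FPKM against 5.72 in clone 3 and 3.94 and 2.91 in the 2iL-iPSC clones. Its Hoxc6, the leading Hox gene of MEF cells, was at 0.169 FPKM. Without clone 3, 2 Hox genes were called higher, Hoxa2 and Hoxa5, and 1, Hoxc13, lower, in a fit where the spread of clone 1 is taken from the 2iL-iPSCs. Passage and medium cannot be told apart in the iPSCs, and the part of fibroblast RNA in the difference between the clones was not tested.

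MEF cells had the highest Hox sum, of which groups 4 to 8 gave 170 and 166 FPKM and groups 1 to 3 gave 25.9 and 23.9. In OSKM-ESCs of day 38 the weight lay the other way, with 38.0 and 36.5 FPKM in groups 4 to 8 and 68.1 and 67.9 in groups 1 to 3. By cluster, HoxC gave most in MEF cells, 99.4 and 95.5 FPKM, and HoxB most in OSKM-ESCs of day 38, 68.6 and 69.9. Their 5 highest genes were Hoxc6 at 37.7 and 35.0 FPKM, Hoxc8 at 24.7 and 25.6, Hoxa7 at 22.5 and 21.3, Hoxb9 at 17.0 and 17.4, and Hoxc5 at 16.9 and 15.6. The order of the genes at day 38 in OSKM-ESCs was another: Hoxb1, Hoxb9, Hoxb2 and Hoxb3 were among the 5 highest, and among neighbors in that order the 2 libraries of Hoxb9, Hoxb2 and Hoxb3 did not overlap but lay within 10.2 to 11.6 FPKM. Across the 39 genes, Pearson's r of log2(FPKM + 1) with the MEF mean was 0.411 and 0.417 for the day 38 libraries and -0.226 to 0.328 for the other pluripotent libraries, with the highest of these in OSKM-iPSC clone 1, against 0.987 between the 2 MEF libraries. These are descriptions over genes that share clusters and libraries. In OSKM-iPSCs 27 of the 30 Hox genes that passed the filter were lower than in MEF cells and 0 higher (26.4% and 34% of all genes), and in 2iL-iPSCs 27 of 31 were lower and 2, Hoxc12 and Hoxc13, higher (37.4% and 40.6%). Of those that passed, 27 and 28 did so through the MEF libraries alone, and the comparisons share the MEF libraries. When the first or the second MEF library was left out, 0 of 28 and 0 of 29 tested Hox genes were called lower in OSKM-iPSCs by limma, with 24 and 25 at an unadjusted p under 0.05, and 0% of all genes were called. In 2iL-iPSCs, 1 Hox gene in place of 2 was called higher without clone 3, clone 6 or the first MEF library.

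Set against the fibroblast markers, most Hox genes of day 38 stood higher than any marker as a share of the MEF level. The 15 fibroblast markers in OSKM-ESCs of day 38 were at 0 to 15.1% and 0.148 to 14.5% of their mean MEF level, with medians of 0.929% and 0.769%. Over the 28 Hox genes with a mean MEF level above 1 FPKM the median share was 42.5% and 43.7%, and 20 of the 28 lay above the highest marker, Mmp2, in each library. Hoxb2 stood at 307% and 321% of the MEF level, Hoxd4 at 269% and 280%, Hoxd3 at 188% and 147%, and Hoxb8 at 122% and 99.3%. Hoxc6, the most abundant in MEF cells, stood at 7.44% and 6.09%, Hoxc5 at 1.38% and 3.25% and Hoxc10 at 1.71% and 1.90%. The shares of different Hox genes in a library thus differed by more than the shares of the markers did. The summed marker level was 34.4 and 33.9 FPKM at day 38, 45.6 and 51.4 at day 18 and 30.5 and 29.7 at day 25, against 5.41 to 7.94 in 2iL-ESCs and 3473 and 3233 in MEF cells. Prrx1, a transcription factor of embryonic mesenchyme, was at 0.277 and 0.238 FPKM at day 38 and 101 and 94.3 in MEF cells. Of the 11 markers that passed the filter, 11 were higher in OSKM-ESCs at day 18 (29.7% of all genes), 9 at day 25 (23.3%) and 11 at day 38 (29.2%). An FPKM over 1 was reached by 7 to 10 markers in OSKM-ESC libraries and by 2 or 3 in 2iL-ESCs. The filter thus leaned these counts towards higher.

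At the earlier days fewer Hox genes stood above the markers. At day 18 the markers had medians of 1.45% and 1.91% and the 28 Hox genes 1.41% and 3.16%, and 6 and 9 Hox genes lay above the highest marker, Mmp2, at 8.16% and 8.11%. Those included Hoxa2 at 20.0% and 17.9% and Hoxb2 at 21.4% and 26.6%, whereas Hoxc6 stood at 0.309% and 1.75% and Hoxc8 at 0.528% and 2.58%, within the range of the markers. At day 25 the medians were 1.01% and 0.964% for markers and 0.931% and 1.64% for Hox genes, with 5 and 7 Hox genes above Mmp2. With the markers limited to those over 100 FPKM in MEF cells, which leaves Mmp2 out, these counts were 12 and 13. In OSKM-iPSC clone 1 the markers stood at 1.05% to 17.4% with a median of 7.55%, above the Hox median of 2.81%, and 4 Hox genes exceeded the highest marker (7 with the limited markers), among them Hoxa2 at 53.0%, Hoxa4 at 24.9% and Hoxb2 at 28.5%. In 2iL-ESCs the marker medians were 0.130% to 0.331%, and the median Hox share was 0% in 5 of the 6 libraries. When the median marker share of a library times the MEF level was taken off every gene, 22 Hox genes were higher at day 38, 7 at day 18 and 7 at day 25, and 9 in place of 15 over all days. At day 38 this took off only 0.929% and 0.769% of the MEF level, so that count could move little. A share as high as that of Mmp2, 15.1% and 14.5%, was not tested.

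**Figure D5:**
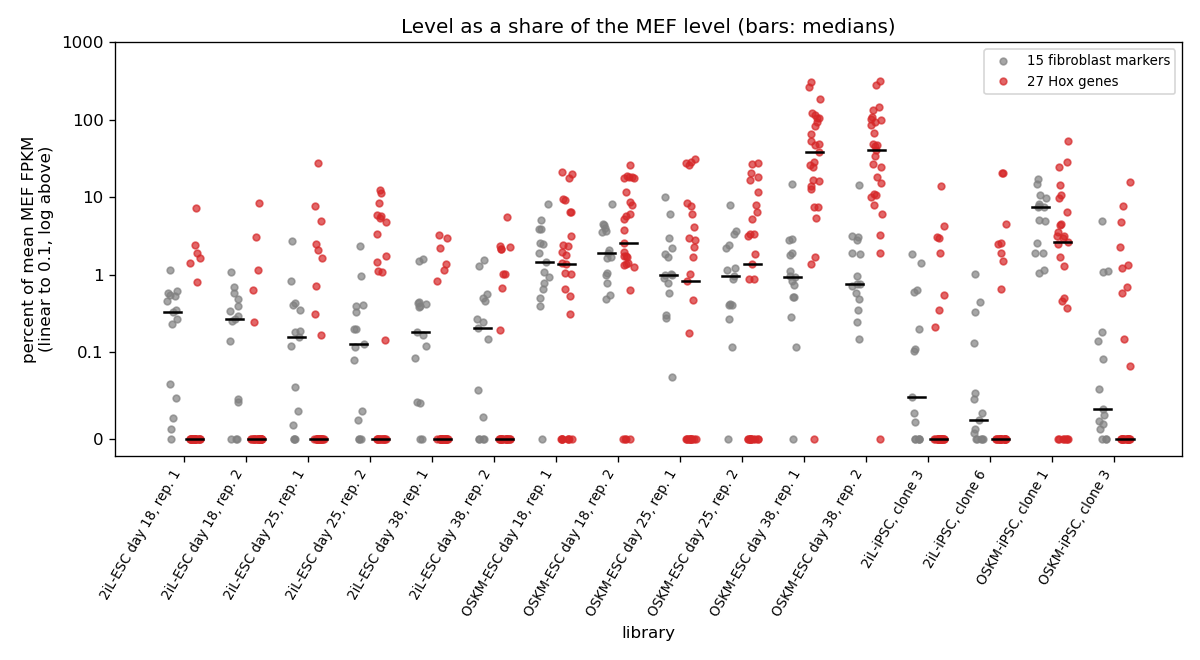
Level of 27 of the 28 Hox genes (red) and the 15 fibroblast markers (grey) in each pluripotent library as a percent of the mean FPKM in MEF cells, on an axis that is linear to 0.1 and logarithmic above, with bars at the medians. The red points rise above the grey ones at day 38 in OSKM-ESCs, and in OSKM-iPSC clone 1 the grey median lies above the red.

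Genes known to act upstream of the clusters differed between the media at each day. Of the 20 genes listed as activators or as part of the retinoic acid, WNT and FGF inputs, 16 were tested. Of these, 15 were higher and 0 lower in OSKM-ESCs at day 38 (29.2% and 21.1% of all genes). At day 18, 8 were higher and 3 lower (29.7% and 20.5%), and at day 25, 12 higher and 3 lower (23.3% and 28.3%). Cdx4, Rarb, Egr2, Wnt3a and Gdf11 passed the filter through OSKM-ESCs of day 38 alone, so the count of that day had to lean towards higher. The median difference at day 38 was 1.64 on the log2(FPKM + 1) scale against 0.07 over all genes. Cdx2, a caudal factor that activates trunk Hox genes, was at 0.849 and 0.929 FPKM at day 18, 0.690 and 0.643 at day 25 and 26.3 and 24.5 at day 38, with 0 to 1.31 in 2iL-ESCs. Cdx1 took another course, at 26.0 to 33.2 FPKM in 2iL-ESCs, 1.13 to 8.10 in OSKM-ESCs of days 18 and 25, and 47.6 and 47.8 at day 38, so that it was lower over all days by -1.69 ± 0.55 (limma, adjusted p = 0.021) and higher at day 38 by 0.77 ± 0.24 (adjusted p = 0.022). T, the brachyury factor of the primitive streak, was at 34.3 and 48.9 FPKM at day 18, 13.8 and 13.3 at day 25 and 194 and 198 at day 38. Fgf8 was at 9.10 and 12.5 FPKM at day 18 and 51.6 and 47.8 at day 38, and Crabp2, which binds retinoic acid in the cell, at 17.5 and 18.2 and then 84.0 and 85.0. Over all days Fgf8, T and Crabp2 were the most raised of this list, by 3.70, 3.61 and 2.66 on the log2(FPKM + 1) scale. Wnt3a was at 7.04 and 6.09 FPKM and Aldh1a2, which makes retinoic acid, at 13.5 and 14.2 at day 38, against at most 0.372 and 1.18 at the earlier days in OSKM-ESCs and 0.282 to 0.615 and 2.06 to 3.50 in 2iL-ESCs.

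Markers of the primitive streak and posterior mesoderm were higher at day 38 in 9 of the 9 genes listed, all tested, where 29.2% of all genes were higher. An FPKM over 1 was reached by 9 and 8 of them at day 38 in OSKM-ESCs and by 3 in every other ESC library. The filter thus leaned the count towards higher. At day 18, 5 were higher and 0 lower (29.7% and 20.5% of all genes). At day 25, 2 were higher and 1 lower, near the share of all genes for higher (23.3% and 28.3%). Nkx1-2, which marks axial progenitors, was at 51.8 and 55.9 FPKM, Tbx6 at 14.8 and 13.3 and Msgn1, both of the presomitic mesoderm, at 10.7 and 12.2, against at most 0.507 and 0.376 FPKM for the latter 2 at the earlier days. The summed level of this list was 291 and 299 FPKM at day 38, 27.4 to 69.5 at the earlier days and 10.6 to 17.9 in 2iL-ESCs. Of the 10 neural progenitor markers, 7 were tested, and 4 were higher and 2 lower at day 38, where 29.2% and 21.1% of all genes were. Sox3 was at 15.1 and 15.8 FPKM at day 38 and already at 19.1 and 14.8 at day 25, whereas Sox1 and Neurog2 were listed at 0 in every library. Over all days Sox3, Nes and Map2 were the most raised of this list, by 2.04, 1.32 and 0.99 on the log2(FPKM + 1) scale. Tubb3 and Neurog1 were lower, by -0.83 and -0.64. The summed neural level at day 38 was 89.4 and 89.8 FPKM, against 84.1 and 85.9 in 2iL-ESCs of that day. Of the 6 endoderm markers 3 were tested and all 3 were higher at day 38 (29.2% of all genes). The filter leaned this count too, with 3 markers over 1 FPKM at day 38 in OSKM-ESCs and 0 or 1 in other ESC libraries. Foxa2 was at 2.89 and 3.31 FPKM, and the list had a summed level of 8.89 and 9.69 FPKM. Of the 8 pluripotency markers 6 were lower and 0 higher at day 38 (21.1% and 29.2% of all genes). Their summed level of 1200 and 1219 FPKM was below the 1588 to 1854 of the earlier OSKM-ESCs and the 2798 to 3135 of 2iL-ESCs. The part of these cell states in the Hox levels was not tested.

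The PBX, MEIS and PKNOX genes encode the partners with which HOX proteins bind DNA. Of these 9 genes, 7 were higher and 0 lower in OSKM-ESCs at day 38 (29.2% and 21.1% of all genes). At day 18, 7 were higher and 0 lower (29.7% and 20.5%), and at day 25, 5 higher and 2 lower (23.3% and 28.3%). Over all days 6 were higher and 0 lower (29.5% and 24.4%). Meis1 and Meis3 passed the filter through OSKM-ESCs alone, so they had to lean towards higher. Meis2 was at 11.1 to 12.4 FPKM before and 30.1 and 28.3 at day 38, against 2.24 to 4.28 in 2iL-ESCs. Meis3 was at 2.03 to 5.49 FPKM before and 20.0 and 18.5 at day 38, against 0.196 to 0.517. Of the 18 Polycomb genes, which keep the clusters silent, 16 were tested, and 5 were higher and 5 lower at day 38, where 29.2% and 21.1% of all genes were. Over all days the largest differences were Phc2 by 1.16, and Mtf2 and Cbx7 by -1.06 and -1.03. Among 10 trithorax and H3K27 demethylase genes, 0 were higher and 4 lower at day 38 (29.2% and 21.1% of all genes). Ash2l was at 64.1 and 63.2 FPKM at day 38 against 159 to 214 in 2iL-ESCs. Both lists had median differences near that of all genes at day 38, at -0.04 and 0.01 against 0.07.

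Of the 46 other annotated genes listed inside the clusters, 13 were tested. An FPKM over 1 was reached by 11 and 12 of the 46 at day 38 in OSKM-ESCs and by 1 to 3 in other ESC libraries. The filter thus leaned the counts towards higher at day 38. At day 38, 11 were higher and 2 lower (29.2% and 21.1% of all genes), against 1 higher and 2 lower at day 25 (23.3% and 28.3%). At day 18, 2 were lower and 0 higher by limma (20.5% and 29.7%), with 0 higher also at an unadjusted p under 0.05. Hoxaas3 was at 10.7 and 11.2 FPKM at day 38, Hoxb5os at 7.89 and 7.43 and Gm28230 of HoxD at 3.61 and 3.88. In addition, all 3 were listed at 0 in the 2iL-ESCs, and their MEF levels were lower, at 1.52 and 2.26, 2.93 and 2.49, and 1.63 and 1.18. Hotairm1 of HoxA was detected in all libraries, at 0.718 to 2.00 FPKM in 2iL-ESCs, 2.04 to 3.88 in OSKM-ESCs of days 18 and 25, and 7.05 and 5.07 at day 38. The 2 that were lower, Gm53 and Mir196a-1, lie between Hoxb13 and Hoxb9. Gm53 was at 4.66 to 9.85 FPKM in 2iL-ESCs and 0.159 to 1.79 in OSKM-ESCs, and Mir196a-1 at 2.27 to 3.68 and 0 to 0.372, by -2.21 ± 0.24 and -1.71 ± 0.11 over all days (limma, adjusted p = 9.6e-06 and 1.7e-07). Overlaps of these 2 with each other or with other genes were not counted, so whether they share reads was not tested. Of the Hox genes on either side of them, Hoxb13 was also higher in 2iL-ESCs. Hoxb9 on the other side was higher there at day 25 and lower at day 38. Both Gm53 and Mir196a-1 were detected in MEF cells, Gm53 at 11.2 and 13.2 FPKM. The library kit does not mark strand. Of the 39 Hox genes, 23 overlap another annotated gene, 14 of them on the opposite strand, and 11 overlap another Hox gene. Values of such Hox genes cannot be told apart from those of the overlapping genes. Of the 10 genes flanking the clusters 8 were tested, and 3 were higher and 1 lower at day 38 (29.2% and 21.1% of all genes). Of those called, Evx1 next to HoxA was at 2.67 and 2.74 FPKM, and the untested Evx2 next to HoxD was listed at 0 in all libraries. The other called neighbors differed little: Mtx2 was at 20.4 and 22.3 FPKM at day 38 against 16 and 15 in 2iL-ESCs of that day, Hibadh at 22.1 and 25.2 against 17.7 and 19.0, and Skap2, the lower gene, at 12.2 and 14.4 against 24.2 and 21.0.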

How the data were processed

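RNA-Seq was made from 18 libraries, 2 for each of 9 groups, with a poly-T kit that does not mark strand. The authors mapped reads to GRCm38 with STAR 2.7.1a, kept unique alignments and quantified genes with StringTie 2.0, and named Cuffdiff 2.2.1 for their own tests. The deposited tables give FPKM per gene and library, with coverage (mean read depth over the gene) and TPM beside it. Of 55471 genes listed, 55469 were used, since St13 and U2surp had no usable estimate in some libraries. The depth in reads is unknown, so no counting interval is given. Coverage per FPKM was 5.01 to 6.07 and 11303 to 12095 genes per library exceeded an FPKM of 1.

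From the deposited FPKM, limma 3.58.1 in R 4.3.3 was fitted with a mean-variance trend to log2(FPKM + 1) of all genes above an FPKM of 1 in at least 1 library of the fit, with Benjamini-Hochberg adjustment over these genes and a threshold of 0.05. ESCs were compared over all days with day as a term, by day, and by the interaction, and iPSCs with each other and with MEF cells. Exact 2-sided permutation tests over libraries were made per Hox gene. Figures used Python 3.11.15 with matplotlib 3.10.9. The scripts were tested on simulated data.

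The Hox genes and the lists were chosen with earlier results of these data known. Named are the Hox genes with an FPKM over 1 in any of the 16 pluripotent libraries and the 5 highest in MEF cells, and per list those with the largest differences over all days that passed the test; other genes named were chosen after their values were seen. Alternatives were the pseudocount, the filter, scaling by median ratio, quantiles or TPM, limma without the trend, a fold cutoff, a single fit of all groups, fibroblast RNA taken off, a replicate block and each library left out. Promoters are the RefSeq letters of GRCm38.p6. Individual results for 2 genes are not reported here, and counts and sums include them.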

Additional observations from a re-analysis of the deposited data

Results flagged for a closer look

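The effect of the medium on 22 Hox genes differed between days 18, 25 and 38 by limma's interaction test, with adjusted p from 2.44e-06 for Hoxb1 to 0.00433 for Hoxd1. The value given for 21 of them is the span between its largest and smallest OSKM-ESC minus 2iL-ESC difference on the log2(FPKM + 1) scale over the 3 days. In HoxB the span was 3.78 for Hoxb9, 3.50 for Hoxb1, 3.03 for Hoxb3, 2.80 for Hoxb8, 2.71 for Hoxb2, 2.30 for Hoxb7, 1.78 for Hoxb4, 1.63 for Hoxb6 and 1.04 for Hoxb5. In HoxA it was 1.95 for Hoxa9, 1.89 for Hoxa3, 1.52 for Hoxa2, 1.49 for Hoxa5 and 1.32 for Hoxa7. HoxC gave 2.92 for Hoxc4, 2.20 for Hoxc8 and 1.62 for Hoxc6, and HoxD gave 1.99 for Hoxd4, 1.61 for Hoxd9, 1.60 for Hoxd3 and 0.84 for Hoxd1. In all 22 the largest difference was that of day 38. Of the 23 Hox genes tested, 16 passed the filter through OSKM-ESCs of day 38 alone, so their differences had to lean towards that day. Of all genes tested, 37.9% passed the interaction test. All 9 tested genes of HoxB are among the 22. Hoxb9 and Hoxc4 passed the test in both directions, as lower in OSKM-ESCs at day 25 and higher at day 38. With 2 libraries a day, no library could be judged to stand apart within its group.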

How the results depend on the processing

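The day 38 count of 22 Hox genes higher in OSKM-ESCs was kept within 1.5 times by every alternative run, and the count over all days was not. The latter was 15, and became 7 with no filter on low values, 27 in a single fit of all 9 groups, 9 with fibroblast RNA taken off and 5 without day 38, an alternative chosen after seeing the data in which Hoxb9 turned to -0.26. Lower Hox genes over all days were 1, and 3 with a filter of FPKM over 0.1 (with either pseudocount) or with none, and 2 in the single fit. At day 18 the single fit gave 5 higher and 2 lower, and the other filters 2 lower. At day 25 the count of 3 lower became 6 with the filter at 0.1, with either pseudocount, and 5 with none. At day 38 the count of 1 lower became 3 with these filters and 2 in the single fit. The 3 that changed across days in 2iL-ESCs became 5 with the filter at 0.1 and 1 with none or with quantile scaling. Between iPSCs, 0 and 0 became 2 higher and 2 lower with no filter, 3 and 3 in the single fit, 1 lower without the trend and 2 lower by a fold over 2 with an unadjusted p under 0.05, a cutoff that left 1 of 2 higher in 2iL-iPSCs than in MEF cells. With only fibroblast markers over 100 FPKM in MEF cells, the Hox genes above the highest marker were 12 and 13 in OSKM-ESCs of day 25, 8 and 7 in the first 2iL-ESC library of days 25 and 38, and 7 and 9 in OSKM-iPSC clones 1 and 3. Scaling moved the median difference of all genes by more than 0.1 with quantiles (-0.107 at day 18, -0.108 at day 38, -0.137 between iPSCs), median ratio (-0.147, OSKM-iPSCs against MEF cells) and TPM (-0.102 and -0.133, OSKM-iPSCs and 2iL-iPSCs against MEF cells). The causes were not tested.

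Leaving out each library gave 10 to 15 higher and 1 to 1 lower over all days, 7 to 9 and 1 to 1 at day 18, 7 to 9 and 3 to 3 at day 25, and 21 to 22 and 1 to 1 at day 38. It gave 21 to 22 for the interaction and for the change across days in OSKM-ESCs, 0 to 3 for that in 2iL-ESCs, and 0 to 2 higher and 0 to 1 lower between iPSCs. Against MEF cells it gave 0 to 0 higher and 0 to 28 lower for OSKM-iPSCs and 1 to 2 higher and 25 to 28 lower for 2iL-iPSCs. A lone library was assumed to vary like the others. With the replicate number as a block, 10 Hox genes were higher over all days and 22 at day 38. Same-numbered libraries deviated together with r = 0.131, 0.0904 and 0.012 at the 3 days, so the numbers were not taken as pairs.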
